A study of Rattus norvegicus with 12 samples.

Results

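The chemokine system was examined in RNA from the rat left atrium. Its members were the genes with counts whose symbols are those of the CC, CXC, CX3C and XC chemokines, of their receptors, or of the atypical chemokine receptors. In all, 55 of the 21239 genes with counts were members, of which 34 were ligands, 17 were receptors and 4 were atypical receptors. The members were chosen by symbol and not by their values.

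The data were 12 RNA-seq libraries from male rats that were 14 weeks old at purchase, with 3 rats in each of 4 groups. The WKY group held Wistar-Kyoto rats, a normotensive strain, and received saline (7.5 ml/kg/day). The SHR group held spontaneously hypertensive rats on the same saline dose. The ARB group held SHRs given valsartan (30 mg/kg/day), a blocker of the angiotensin II receptor, and the ARNI group held SHRs given sacubitril/valsartan (60 mg/kg/day), which adds a neprilysin inhibitor, and treatment lasted 4 weeks in every group. The comparison of SHR with WKY asks how the hypertensive strain differs from the normotensive strain, and those of the treated groups ask how atrial transcripts differ under the drugs.

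Chemokines are small secreted proteins that direct the movement of leukocytes, and most act through receptors coupled to G proteins of the inhibitory class. Atypical chemokine receptors bind chemokines without that coupling and remove or present them. In the heart, such ligands come from endothelial cells, fibroblasts, mesothelium and resident macrophages, and the receptors are carried mostly by leukocytes.

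Before the results, 2 properties of the libraries need to be given. For the 6 WKY and SHR libraries the strain words of the title contradict the name of the library, and in the ARB and ARNI labels a WKY strain field stands beside a phenotype field that says SHR, so libraries were grouped by library name. With that grouping, Ndufa10l1 was at 0 in the 3 libraries named WKY and between 54.1 and 119 CPM (counts scaled to a common library total) in the other 9, and Mettl24 was between 3.02 and 3.58 CPM in those 3 and at most 0.0688 CPM in the other 9. The second property is the chamber. Myl2, the ventricular myosin light chain, was between 2300 and 4160 CPM in WKY 1, WKY 2, WKY 3, SHR 2, ARB 3 and ARNI 2, and at most 24.2 CPM in the other 6 libraries. Myl7, the atrial light chain, was at most 15.9 CPM in the 3 WKY libraries and ARNI 2, and at least 4480 CPM in the other 8. The atrial label was therefore not borne out by the markers in WKY 1, WKY 2, WKY 3 and ARNI 2, and SHR 2 and ARB 3 held markers of both chambers. All 3 WKY libraries are on the ventricular side, so strain and chamber cannot be told apart in the comparison of SHR with WKY. Library totals were between 11252345 and 15823511 counts, so that a count of 0 allows a level of up to 0.19 to 0.267 CPM (3 counts), a limit that covers counting error only.

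Most members were scarce. A total of 20 members had a mean of at least 2 CPM over the 12 libraries, namely 14 of the 34 ligands, 2 of the 17 receptors and all 4 atypical receptors. Another 30 had a mean under 1 CPM, of which 17 were ligands and 13 were receptors. Ccl25, a ligand of the thymus and small intestine, and Cxcr1, a neutrophil receptor, had no count in any library, while 37 members had a count in all 12. Transcript lengths were not used, so levels of different genes are not compared with each other. The summed level of the 34 ligands was 424, 406 and 524 CPM in WKY, 286, 346 and 352 CPM in SHR, 265, 307 and 405 CPM in ARB, and 221, 402 and 338 CPM in ARNI. The WKY libraries were above the other 9 in this sum, although ARB 3 and ARNI 2 came within a few CPM of the lowest of them. That order rested on Cxcl12, since the sum of the other 33 ligands was 189, 185 and 227 CPM in WKY and 213, 134 and 273 CPM in SHR, and these groups overlapped. Apart from Ccl27, the 34 members with a mean under 2 CPM had means between 0 and 1.91 CPM and no value above 5.92 CPM, and 26 members were too low to be tested in any comparison. Ccl11, the eosinophil ligand eotaxin, held that highest value in ARB 2, and was between 0.0852 and 0.435 CPM in WKY, 0.474 and 2.14 CPM in SHR, 0.555 and 5.92 CPM in ARB and 0.236 and 1.9 CPM in ARNI. The neutrophil ligands Cxcl1, Cxcl2, Cxcl3 and Cxcl6 were at most 2.03, 0.174, 0.136 and 0.396 CPM in any library. Ccl3 and Ccl4, inflammatory ligands of activated leukocytes, were at most 0.713 and 1.13 CPM.

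**Figure D1:**
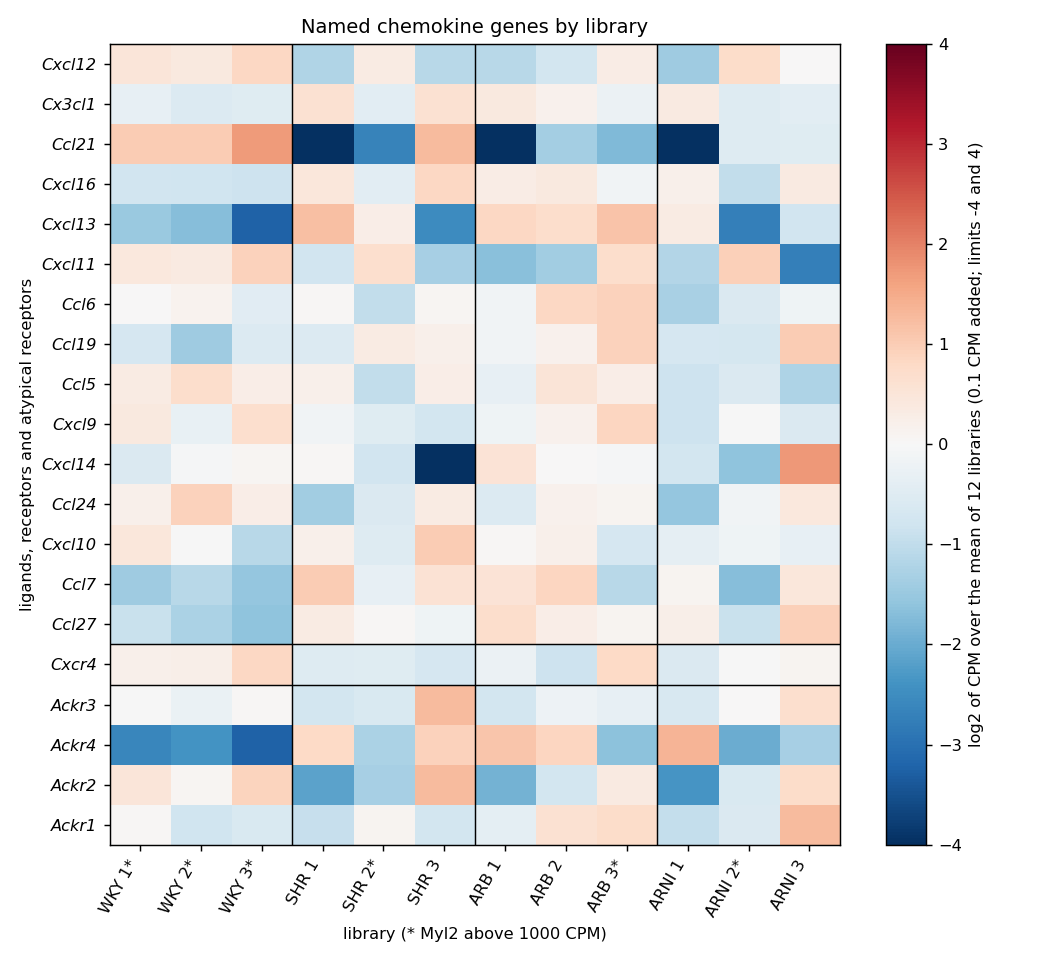
Levels of 20 chemokine genes, with ligands at the top, the receptor Cxcr4 below them and atypical receptors at the bottom, and the 12 libraries in columns. Colour is the log2 of CPM over the gene's mean of 12 libraries (0.1 CPM added, limits -4 and 4), and an asterisk marks the 6 libraries with Myl2 above 1000 CPM. Ackr4 and Ccl7 are below their means in all 3 WKY libraries and in SHR 2, ARB 3 and ARNI 2, and Cxcl11 and Cxcl12 are above their means in those 6 libraries.

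Between SHR and WKY, 24 members had enough counts to be tested and 5 were called by edgeR's quasi-likelihood test, that is, they had an adjusted p no higher than 0.05 and a log2 fold change of 1 or more in size. Ackr4, Ccl7, Ccl27 and Cxcl16 rose in SHR and Cxcr4 fell. Over all 13794 genes tested, 8.89% were called, 5.54% as higher and 3.35% as lower. An unadjusted p under 0.05 was reached by 11 of the 24 members and by 39.4% of all genes. The median log2 fold change was -0.22 over the 24 members and 0.015 over all genes tested. The 31 members that were not tested had no value above 2.14 CPM in these 6 libraries, so a member could enter the test through the group in which it was high. Ccl7 and Ccl27, both called as higher, entered through the SHR group. Without WKY 1, WKY 2, WKY 3 or SHR 1, 0 members were called, and the calls over all genes fell from 1226 to between 348 and 577. In those 4 fits the log2 fold change was 2.76 to 3.19 for Ackr4, 1.51 to 2.00 for Ccl7, 1.13 to 1.52 for Ccl27, 0.99 to 1.04 for Cxcl16 and -1.28 to -0.90 for Cxcr4, each in the direction of the fit with all 6 libraries. Without SHR 2, 7 members were called, and without SHR 3, 9. SHR 2 was the SHR library with ventricular markers, so the fit without it compares groups that lie further apart in chamber. In the fit of all 12 libraries, in that with the replicate number as a block, and in that with the chamber score as covariate, 0 members were called.

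**Figure D2:**
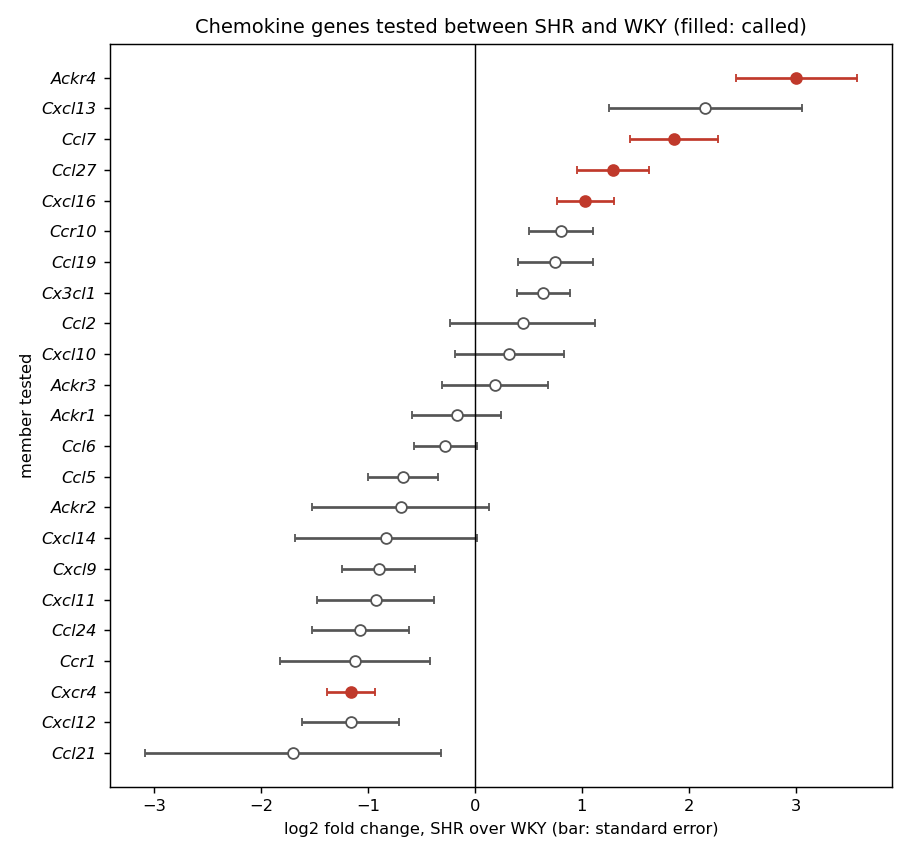
Log2 fold change of SHR over WKY for 23 of the 24 chemokine genes tested, with a bar of 1 standard error on each side. Filled red points are the 5 called genes, of which Ackr4 (3.00), Ccl7 (1.86), Ccl27 (1.29) and Cxcl16 (1.03) lie right of 0 and Cxcr4 (-1.16) lies left of it.

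Among the ligands, Ccl7 (NCBI gene 287561), which attracts monocytes, was at 0.682, 0.87 and 0.622 CPM in WKY, 4.15, 1.58 and 3.05 CPM in SHR, 2.98, 3.71 and 0.872 CPM in ARB, and 2.15, 0.55 and 2.78 CPM in ARNI. All 3 SHR libraries were above all 3 WKY libraries, while ARB 3 was at the upper end of the WKY range and ARNI 2 below it. The WKY counts were 8, 10 and 7 reads, and the gene entered the test through the SHR group, in which it was high. On the log2 scale, SHR was higher than WKY by 1.86 (SE 0.412, adjusted p = 0.0271 by edgeR). Over the 12 libraries, Ccl7 was between 0.55 and 1.58 CPM in the 6 with Myl2 above 1000 CPM and between 2.15 and 4.15 CPM in the other 6. The share of all genes that split the libraries by Myl2 in this way was not counted, here or for the genes below. Ccl7 lies beside Ccl2, Ccl11, Ccl12 and Ccl1 in the RefSeq gene order. Ccl2, the other monocyte ligand of this cluster, was at 1.19, 2.26 and 1.6 CPM in WKY and 1, 1.18 and 5.55 CPM in SHR. The Ccl2 groups overlapped, and SHR 3 alone was above every WKY library.

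Cxcl16 (gene 497942), a membrane-bound chemokine that is also a scavenger receptor, was at 14.3, 13.9 and 13.7 CPM in WKY, 33.4, 18.3 and 43.8 CPM in SHR, 30, 31.8 and 22 CPM in ARB, and 28.3, 12.3 and 31.3 CPM in ARNI. The WKY libraries were close to each other, the SHR libraries were all above them, and ARNI 2 was below them. The difference of SHR from WKY was a log2 fold change of 1.03 (SE 0.264, adjusted p = 0.039 by edgeR), just past the threshold of 1. Without SHR 3 it was 0.79 and not called (adjusted p = 0.0664 by edgeR, with a range of 0.000457 to 0.925 over 13 alternatives). Its level was between 12.3 and 22 CPM in the 6 libraries with Myl2 above 1000 CPM and between 28.3 and 43.8 CPM in the other 6. The Cxcl16 gene overlaps Zmynd15, which was between 1.43 and 5.76 CPM, and the counts of both genes were not whole in 11 libraries, so part of their reads was shared by estimation. Cxcr6, the receptor of CXCL16 on T cells, was between 0.696 and 0.938 CPM in WKY and between 0.267 and 0.339 CPM in SHR, and was too low to be tested.

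Ccl27 (gene 362505), known as a ligand that draws T cells to the skin, was at 0.938, 0.696 and 0.533 CPM in WKY, 2.34, 1.89 and 1.63 CPM in SHR, 3.04, 2.2 and 1.98 CPM in ARB, and 2.15, 0.943 and 3.6 CPM in ARNI. Every SHR and ARB library was above every WKY library, and ARNI 2 was just above the WKY range. Between SHR and WKY the log2 fold change was 1.29 (SE 0.335, adjusted p = 0.0405 by edgeR). It was not called by DESeq2 (1.29, adjusted p = 0.0677) or by edgeR without the filter on low counts (1.30, adjusted p = 0.0576), and over 13 alternatives, of which 4 called it, the adjusted p lay between 0.0281 and 0.656. The WKY libraries held 11, 8 and 6 reads of this gene, which entered the test through the SHR group, in which it was high. Ccl27 overlaps Il11ra1, a receptor subunit for interleukin-11, which was between 71.3 and 80 CPM in WKY and between 110 and 151 CPM in SHR. Whether reads of Il11ra1 entered the Ccl27 count was not tested, and it is not stated whether counting used strand. Ccr10, the receptor of CCL27, was at 1.45, 1.04 and 0.8 CPM in WKY and 2.41, 1.89 and 2.03 CPM in SHR. The Ccr10 groups did not overlap, but it was not called (log2 fold change 0.80, SE 0.302, adjusted p = 0.0997 by edgeR). Ccr10 overlaps Cntnap1, which was between 26.5 and 27.6 CPM in WKY and between 78.9 and 130 CPM in SHR, and both had counts that were not whole in 9 libraries.

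**Figure D3:**
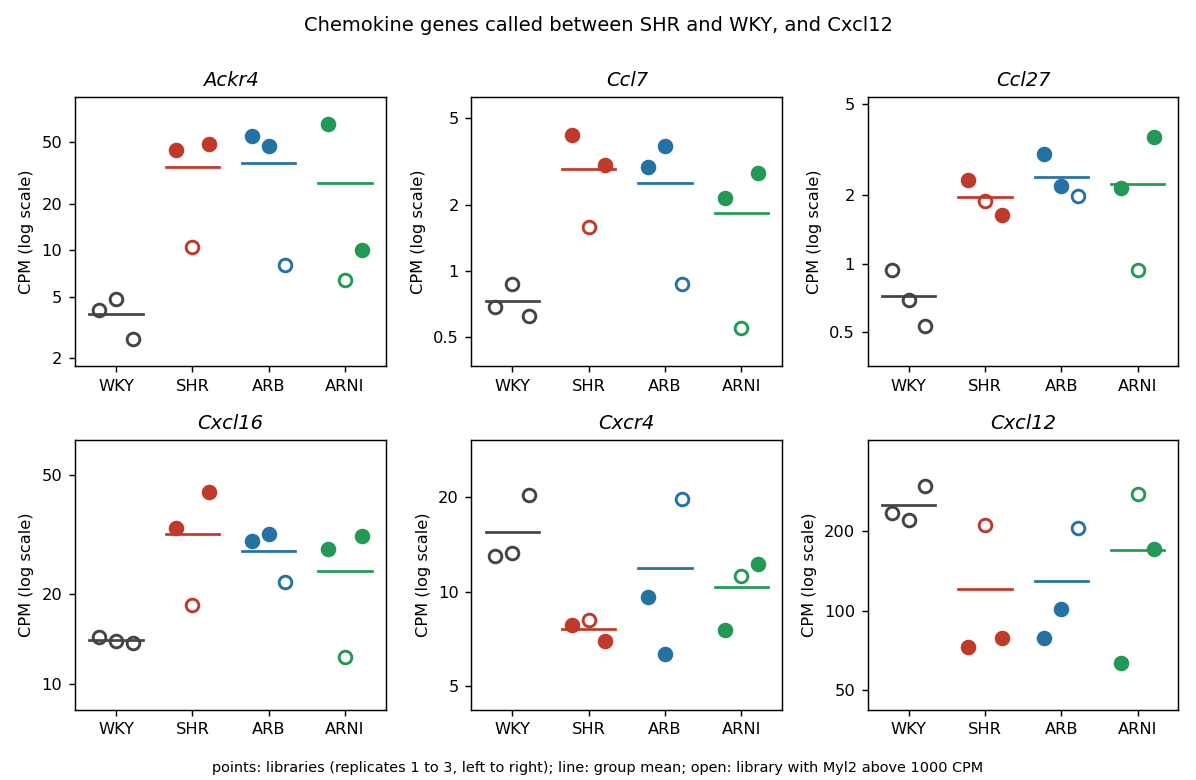
CPM (log axis) of the 5 chemokine genes called between SHR and WKY and of Cxcl12, with 1 point per library, replicates 1 to 3 from left to right, and a line at the group mean. Open points are the 6 libraries with Myl2 above 1000 CPM, and in every SHR-strain group the open point of Ackr4, Ccl7 and Cxcl16 is the lowest and that of Cxcl12 the highest.

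Cxcl12 (gene 24772), a ligand made by stromal and endothelial cells that retains leukocytes and progenitors in tissue, was at 236, 222 and 297 CPM in WKY, 72.6, 212 and 78.6 CPM in SHR, 78.6, 102 and 207 CPM in ARB, and 63.3, 277 and 171 CPM in ARNI. SHR 2, ARB 3 and ARNI 2 were near the WKY libraries and the others were below them. Cxcl12 was between 207 and 297 CPM in the 6 libraries with Myl2 above 1000 CPM and between 63.3 and 171 CPM in the other 6. The Cxcl12 count was not whole in any of the 12 libraries, so part of its reads was shared by estimation, and with which gene was not tested. The SHR and WKY groups did not overlap, but the gene was not called (log2 fold change -1.16, adjusted p = 0.11 by edgeR). It was called by DESeq2 (-1.18, adjusted p = 0.0247) and without SHR 2, the SHR library with ventricular markers (-1.91, adjusted p = 0.000362 by edgeR). The range over its 13 alternatives was 0.000362 to 0.446, all by Benjamini-Hochberg adjustment.

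Cxcl11, Cxcl10 and Cxcl9 are the interferon-induced ligands of CXCR3 and lie side by side in the genome. Cxcl11 was at 12.4, 11.7 and 17.6 CPM in WKY, 5.35, 14.8 and 3.59 CPM in SHR, 2.78, 3.44 and 14.9 CPM in ARB, and 4.04, 18 and 1.29 CPM in ARNI. SHR 2, ARB 3 and ARNI 2 were at the WKY level or just above it, and the other 6 libraries were lower. Cxcl11 was between 11.7 and 18 CPM in the 6 libraries with Myl2 above 1000 CPM and between 1.29 and 5.35 CPM in the rest, a split whose share among all genes was not counted. It was not called between SHR and WKY (log2 fold change -0.93, adjusted p = 0.245 by edgeR), and it was called without SHR 2 (-1.80, adjusted p = 0.00435 by edgeR, with a range of 0.00435 to 0.527 over 13 alternatives).

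The neighbours of Cxcl11 did not share that split. Cxcl10 was at 3.07, 2.17 and 0.978 CPM in WKY, 2.54, 1.5 and 4.61 CPM in SHR, 2.31, 2.54 and 1.35 CPM in ARB, and 1.71, 1.97 and 1.76 CPM in ARNI. Cxcl9 was at 3.67, 2.26 and 4.53 CPM in WKY, 2.54, 1.97 and 1.63 CPM in SHR, 2.45, 3.16 and 5.15 CPM in ARB, and 1.52, 2.75 and 1.83 CPM in ARNI. Groups overlapped for both genes, and Cxcl9 was not called between SHR and WKY (log2 fold change -0.90, SE 0.342, adjusted p = 0.102 by edgeR). The genes Cxcl10 and Cxcl11 overlap Art3, which was between 369 and 678 CPM, and the part of Art3 reads in their counts was not tested. Cxcr3, the receptor of these ligands on activated T cells and NK cells, was between 0.767 and 2.09 CPM in WKY and between 0.237 and 1.49 CPM in SHR.

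The stretches of 250 bases before the start of 7 genes are printed, because 5 were called between SHR and WKY and because Cxcl10 and Cxcl11 are neighbours that behaved differently across the libraries. They are from RefSeq on build GRCr8, which held such a stretch for 41 of the 55 members, and are written 5′ to 3′ on the strand of the gene. Capitals mark matches on either strand to a kappaB-like motif (GGG and TTCC with 3 bases of any kind between), an interferon element-like motif (TTTC and TTTC with 2 bases of any kind between) or a TATA motif (TATAAA), and matches that overlap run together. The 5 called genes were Ackr4 at chr8:113599763-113600012 on the minus strand, Ccl7 at chr10:67513845-67514094 on the plus strand, Ccl27 at chr5:61741780-61742029 on the minus strand, Cxcl16 at chr10:55669951-55670200 on the minus strand, Cxcr4 at chr13:42634289-42634538 on the minus strand.
Ackr4: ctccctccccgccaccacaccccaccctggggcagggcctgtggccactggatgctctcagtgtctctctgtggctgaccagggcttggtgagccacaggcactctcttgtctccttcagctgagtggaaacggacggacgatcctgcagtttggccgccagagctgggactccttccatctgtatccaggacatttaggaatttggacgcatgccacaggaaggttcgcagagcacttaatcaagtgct
Ccl7: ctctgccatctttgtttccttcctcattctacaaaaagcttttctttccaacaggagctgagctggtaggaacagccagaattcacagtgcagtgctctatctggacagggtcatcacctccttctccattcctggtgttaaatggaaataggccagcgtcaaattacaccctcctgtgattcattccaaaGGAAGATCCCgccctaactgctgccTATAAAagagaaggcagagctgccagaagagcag
Ccl27: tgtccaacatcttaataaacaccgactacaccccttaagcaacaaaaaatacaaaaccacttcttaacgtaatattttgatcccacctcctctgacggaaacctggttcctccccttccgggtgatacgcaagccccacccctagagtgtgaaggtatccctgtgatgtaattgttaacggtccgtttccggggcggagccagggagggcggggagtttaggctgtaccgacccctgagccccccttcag
Cxcl16: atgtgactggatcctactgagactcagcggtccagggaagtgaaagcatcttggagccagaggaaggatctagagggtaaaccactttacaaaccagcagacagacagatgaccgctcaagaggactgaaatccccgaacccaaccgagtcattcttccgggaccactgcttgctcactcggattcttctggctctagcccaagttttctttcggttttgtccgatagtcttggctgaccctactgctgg
Cxcr4: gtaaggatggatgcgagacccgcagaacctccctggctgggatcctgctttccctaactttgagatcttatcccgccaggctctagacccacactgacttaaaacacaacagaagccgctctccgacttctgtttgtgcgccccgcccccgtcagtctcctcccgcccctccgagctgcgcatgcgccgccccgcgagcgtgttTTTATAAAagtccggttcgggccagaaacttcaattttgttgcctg

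The stretches of the pair of CXCR3 ligands were Cxcl10 at chr14:15988816-15989065 on the plus strand, Cxcl11 at chr14:15973478-15973727 on the plus strand.
Cxcl10: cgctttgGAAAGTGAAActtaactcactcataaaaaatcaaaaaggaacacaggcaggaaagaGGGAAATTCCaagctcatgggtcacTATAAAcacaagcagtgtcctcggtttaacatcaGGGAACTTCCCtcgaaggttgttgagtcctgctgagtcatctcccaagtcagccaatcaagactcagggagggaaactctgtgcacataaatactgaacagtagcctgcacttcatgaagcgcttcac
Cxcl11: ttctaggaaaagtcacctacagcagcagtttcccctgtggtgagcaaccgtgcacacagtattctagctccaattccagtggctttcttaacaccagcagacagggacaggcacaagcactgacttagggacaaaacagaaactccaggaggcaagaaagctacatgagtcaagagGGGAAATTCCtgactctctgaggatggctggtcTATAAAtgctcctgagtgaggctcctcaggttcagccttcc

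The kappaB-like motif, of the kind bound by NF-kB, was in 10 of the 41 member stretches (24.4%) and in 4.53% of 33469 promoters of the same length. The 10 were those of Ccl6, Ccl7, Ccl9, Ccl20, Ccr3, Cxcl1, Cxcl2, Cxcl6, Cxcl10 and Cxcl11. The TATA motif was in 26.8% of the member stretches and in 12.9% of all, and the interferon element-like motif in 4.88% and in 3.41%. Of the 5 called genes, Ccl7 held the kappaB-like and TATA motifs, Cxcr4 held the TATA motif, and no match was in the windows of Ackr4, Ccl27 and Cxcl16. Both Cxcl10 and Cxcl11 held the kappaB-like and TATA motifs, and Cxcl10 also held the interferon element-like motif. The TATA match began 162 bases before the start of Cxcl10 and 41 bases before that of Cxcl11. A match anywhere in the stretch was counted, whatever its distance from the start.

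Ccl21 and Ccl19 are the ligands of CCR7, which guide dendritic cells and T cells into lymphatic vessels and lymph nodes. Ccl21 (gene 298006) was at 73.9, 75 and 120 CPM in WKY, 0.0669, 5.68 and 89.7 CPM in SHR, 1.19, 14.2 and 10.9 CPM in ARB, and 0.19, 25.6 and 26.4 CPM in ARNI. The value of SHR 1 was 1 read, and SHR 3 alone among the SHR-strain libraries was at the WKY level. Ccl21 was not called between SHR and WKY (log2 fold change -1.70, adjusted p = 0.39 by edgeR), and without SHR 3 it was -5.11 and called (adjusted p = 0.0264 by edgeR, within a range of 0.0264 to 0.877 over the alternatives, of which DESeq2 gave no adjusted p). Mmrn1, a marker of lymphatic endothelium, was at 16.3, 23.7 and 37.4 CPM in WKY, 0.134, 2.6 and 17.6 CPM in SHR, 3.7, 5.5 and 3.49 CPM in ARB, and 0.822, 4.95 and 13 CPM in ARNI. As with Ccl21, Mmrn1 was lowest in SHR 1 and ARNI 1 and in ARB it spanned 3.49 to 5.5 CPM while Ccl21 spanned 1.19 to 14.2 CPM. Flt4, the lymphatic receptor of VEGF-C, was at 12.6, 13.7 and 20.5 CPM in WKY, 8.56, 9.62 and 19.8 CPM in SHR, 8.4, 9.42 and 6.26 CPM in ARB, and 10.7, 10.9 and 12.8 CPM in ARNI, so that SHR 3 alone among the SHR libraries was within the WKY range. The remaining markers of the list followed other orders, with Prox1 between 35.3 and 79.4 CPM in all 12 libraries and Lyve1 between 35.9 and 44.3 CPM in WKY and between 22.9 and 111 CPM elsewhere. Pdpn, which mesothelium also carries, was at 15.2, 15 and 11.2 CPM in WKY, 20.8, 24.8 and 46.1 CPM in SHR, 20.9, 30.7 and 23.4 CPM in ARB, and 25.7, 10.1 and 34.3 CPM in ARNI. The summed level of the 5 lymphatic endothelial markers was 153 to 171 CPM in WKY, 141 to 272 in SHR, 139 to 214 in ARB and 119 to 217 in ARNI, and the part of lymphatic tissue in the Ccl21 values was not tested. In such bulk tissue, fewer cells of a type and less RNA per cell cannot be told apart.

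Ccl19 was at 2.98, 1.74 and 3.29 CPM in WKY, 3.28, 6.07 and 5.49 CPM in SHR, 4.36, 5.43 and 9.28 CPM in ARB, and 2.97, 2.91 and 9.77 CPM in ARNI. Its SHR and WKY libraries overlapped only because SHR 1 was just below WKY 3, and ARB 3 and ARNI 3 were the highest. Their receptor Ccr7 was at most 0.348 CPM in any library.

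Cxcl13, which draws B cells through CXCR5, was at 7.67, 6.61 and 2.22 CPM in WKY, 49.8, 25.8 and 3.66 CPM in SHR, 38.2, 35.4 and 47.3 CPM in ARB, and 26.9, 3.14 and 12.6 CPM in ARNI. SHR 3 and ARNI 2 were in the WKY range and all 3 ARB libraries were far above it. Cxcl13 was not called between SHR and WKY (log2 fold change 2.15, adjusted p = 0.127 by edgeR), and without SHR 3 the gene was called (2.68, adjusted p = 0.0228 by edgeR, with a range of 0.0228 to 0.654 over 13 alternatives). B cell markers were scarce, with a sum of 5 genes between 0.134 and 1.16 CPM, and Cxcr5 was between 0.401 and 2.62 CPM.

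**Figure D4:**
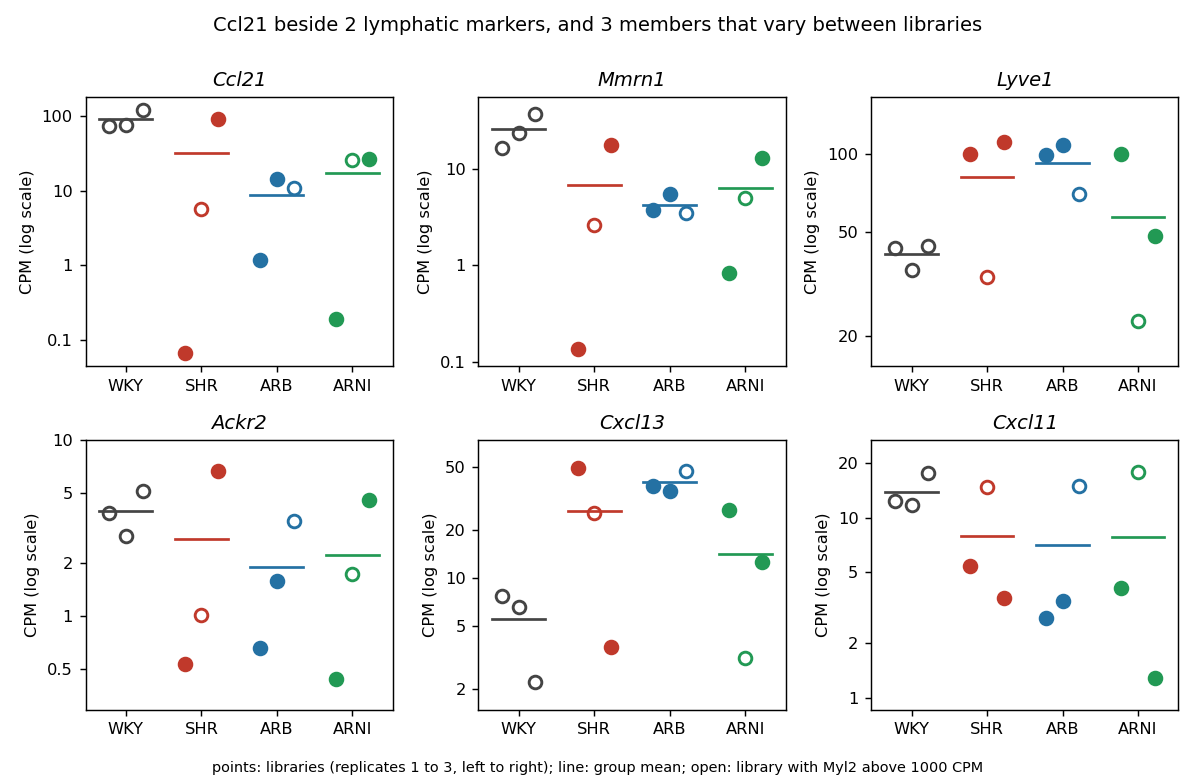
CPM (log axis) of Ccl21, the lymphatic markers Mmrn1 and Lyve1, and the members Ackr2, Cxcl13 and Cxcl11, with 1 point per library, replicates 1 to 3 from left to right, and a line at the group mean. Open points are the 6 libraries with Myl2 above 1000 CPM. Ccl21 ranges from 0.0669 to 89.7 CPM within SHR, and Cxcl11 is between 11.7 and 18 CPM at the open points and at most 5.35 CPM at the filled ones.

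Cx3cl1, a membrane-anchored ligand of endothelial cells, was at 44.9, 38.4 and 40.6 CPM in WKY, 85.5, 41.8 and 86.5 CPM in SHR, 74, 63.8 and 47.8 CPM in ARB, and 71.6, 39.1 and 41.7 CPM in ARNI. SHR 2, ARNI 2 and ARNI 3 were in the WKY range, and the highest library was 2.25 times the lowest, the smallest such ratio among 20 chemokine genes compared in this way. Its receptor Cx3cr1, a marker of patrolling monocytes and macrophages, was at most 0.783 CPM. Ccl24, an eosinophil ligand of macrophages, was at 2.81, 4.7 and 2.93 CPM in WKY, 0.869, 1.58 and 3.05 CPM in SHR, 1.65, 2.75 and 2.62 CPM in ARB, and 0.758, 2.2 and 3.26 CPM in ARNI. SHR 1 and ARNI 1 were low and SHR 3 was at the WKY level. The Ccl24 count was not whole in any of the 12 libraries.

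Ccl5, made by T cells and NK cells, was at 5.03, 6.61 and 4.8 CPM in WKY, 4.61, 1.97 and 4.81 CPM in SHR, 3.17, 5.78 and 4.84 CPM in ARB, and 2.21, 2.67 and 1.63 CPM in ARNI. Ccl6, a rodent ligand of myeloid cells, was at 9.04, 9.83 and 6.49 CPM in WKY, 9.3, 4.49 and 9.35 CPM in SHR, 8.13, 16 and 17 CPM in ARB, and 3.6, 5.97 and 7.87 CPM in ARNI. The ARNI libraries were below all ARB libraries for both genes. Cxcl14, an epithelial and stromal chemokine, was at 1.7, 2.52 and 2.75 CPM in WKY, 2.67, 1.5 and 0.0677 CPM in SHR, 3.84, 2.61 and 2.54 CPM in ARB, and 1.52, 0.786 and 8.82 CPM in ARNI. Its lowest library, SHR 3, held 1 read and its highest was ARNI 3.

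Among the receptors, Cxcr4 (gene 60628), the receptor of CXCL12, was at 13, 13.3 and 20.3 CPM in WKY, 7.82, 8.12 and 6.98 CPM in SHR, 9.59, 6.33 and 19.7 CPM in ARB, and 7.58, 11.2 and 12.3 CPM in ARNI. The SHR libraries lay close together and below all WKY libraries, SHR 2 included, and ARB 3 was within the WKY range. The mean was 15.5 ± 4.12 CPM in WKY and 7.64 ± 0.593 CPM in SHR (SD, n = 3). Cxcr4 was lower in SHR than in WKY, with a log2 fold change of -1.16 (SE 0.225, adjusted p = 0.0198 by edgeR), and without SHR 2 it was -1.23 (adjusted p = 0.0103 by edgeR, with a range of 0.000364 to 0.792 over 13 alternatives). The upper end of that range was the edgeR fit with the chamber score as covariate, in which the log2 fold change was -0.30 and Cxcr4 was not called.

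In all, 8 of the 24 members tested did not overlap between SHR and WKY (33.3%), beside 49.5% of all genes tested, and the 5 called members, Ccr10 and Cxcl12 were among them.

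Macrophages and lymphocytes carry many of the chemokine receptors. The summed level of 10 macrophage markers was 269, 237 and 185 CPM in WKY, 152, 107 and 311 CPM in SHR, 160, 297 and 444 CPM in ARB, and 68.2, 114 and 224 CPM in ARNI. Cd163 (log2 fold change -1.33, adjusted p = 0.0341) and Mrc1 (-1.32, adjusted p = 0.0386), scavenger receptors of resident macrophages, fell in SHR by edgeR, and the other 8 were not called. These 2 calls held in 5 of 13 alternatives, and among others they were lost without scaling (adjusted p = 0.0526 and 0.059 by edgeR), with the replicate block (0.08 and 0.068) and without any 1 of the WKY libraries or SHR 1. The adjusted p by Benjamini-Hochberg lay between 0.000765 and 0.441 for Cd163 and between 0.00148 and 0.638 for Mrc1 over those alternatives. The T cell marker sum was 6.75 to 11.2 CPM in WKY and 4.02 to 8.87 in SHR, and the NK cell sum was 8.62 to 11.7 in WKY and 3.55 to 7.56 in SHR. The part of these cell types in the levels of Cxcr4 was not tested.

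The 4 atypical receptors were all detected in every library. Ackr4 (gene 685243), which removes CCL19, CCL21 and CCL25, was at 4.09, 4.87 and 2.67 CPM in WKY, 44.9, 10.6 and 48.8 CPM in SHR, 55.2, 47.2 and 8.09 CPM in ARB, and 66, 6.45 and 10.1 CPM in ARNI. All 9 SHR-strain libraries were above all 3 WKY libraries, and SHR 2, ARB 3, ARNI 2 and ARNI 3 were the lowest of the 9. The means were 3.88 ± 1.12 CPM in WKY and 34.8 ± 21 CPM in SHR (SD, n = 3). Ackr4 differed between SHR and WKY by a log2 fold change of 3.00 (SE 0.566, adjusted p = 0.0184 by edgeR), and without SHR 2 it was 3.42 (adjusted p = 0.000124 by edgeR). Its range over 13 alternatives was 1.63e-07 to 0.937 by Benjamini-Hochberg adjustment. The Ackr4 gene overlaps Acad11, a mitochondrial acyl-CoA dehydrogenase, which was between 20.2 and 30.7 CPM in all 12 libraries. The Ackr4 count was not whole in each of the 12, whereas the Acad11 count was whole in all of them. With which gene Ackr4 reads were shared was not tested.

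With the chamber score as covariate, the log2 fold changes of Ackr4, Ccl7 and Cxcl16 between SHR and WKY turned to -0.15, -0.27 and -0.049. No WKY score reached the SHR scores (-7.44 to -7.13 and 0.857 to 9.36), so this fit relies on SHR-strain libraries for the slope. Mesothelial markers, whose cells line the atrial surface, were also higher in SHR as a sum. The sum of 6 genes was 59.3 to 81.4 CPM in WKY, 213 to 448 in SHR, 76.9 to 280 in ARB and 47.1 to 311 in ARNI. Of the 6, 5 were called, and Wt1 was fitted lower and not called (log2 fold change -0.27, adjusted p = 0.301 by edgeR). The lowest sums within SHR, ARB and ARNI were those of SHR 2, ARB 3 and ARNI 2, the libraries with ventricular markers. The part of mesothelial cells in the Ackr4 values was not tested.

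Ackr3, which removes CXCL12 and CXCL11, was at 94.5, 80.2 and 100 CPM in WKY, 58.5, 63.2 and 231 CPM in SHR, 58.3, 83.1 and 77.6 CPM in ARB, and 61.2, 97.3 and 152 CPM in ARNI. SHR 3 was the highest library and the other SHR libraries were below WKY. Ackr2, which clears inflammatory CC chemokines and marks lymphatic vessels, was at 3.84, 2.87 and 5.15 CPM in WKY, 0.535, 1.02 and 6.71 CPM in SHR, 0.661, 1.58 and 3.49 CPM in ARB, and 0.442, 1.73 and 4.55 CPM in ARNI. Its highest and lowest libraries were SHR 3 and ARNI 1. Ackr1, a chemokine transporter of venular endothelium and red cells, was at 2.73, 1.48 and 1.69 CPM in WKY, 1.34, 2.84 and 1.56 CPM in SHR, 1.98, 4.13 and 4.44 CPM in ARB, and 1.33, 1.73 and 6.51 CPM in ARNI. All groups overlapped for these 3 genes.

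Between the treated groups and SHR, no member was called. Both comparisons use the same SHR libraries. In ARB against SHR, 28 members and 13979 genes were tested, and edgeR called 0 members and 0% of all genes. At an unadjusted p under 0.05, 1 member and 1.61% of all genes passed by edgeR, and 2 members by DESeq2, which called 0. That member was Xcl1, a ligand of NK cells and T cells that attracts cross-presenting dendritic cells, at 0.401, 0.315 and 0.542 CPM in SHR and 0.926, 0.757 and 1.59 CPM in ARB (6, 4 and 8 reads and 14, 11 and 20 reads). It was the member whose groups did not overlap, beside 5.39% of all genes tested (log2 fold change 1.40, SE 0.474, adjusted p = 1 by edgeR). Xcl1 was too low to be tested in SHR against WKY or in ARNI against SHR. It therefore entered this test through the ARB group, in which it was high. Ccl6 (0.87, SE 0.371) and Cxcl9 (0.84, SE 0.387) followed in p, each with an adjusted p of 1 by edgeR, and their groups overlapped. The median log2 fold change was 0.12 over the 28 members and -0.0064 over all genes tested.

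In ARNI against SHR, 26 members were tested and edgeR called 0, beside 0% of 13955 genes. At an unadjusted p under 0.05, 0 members passed by edgeR and by DESeq2, beside 1.63% of all genes by edgeR, and groups overlapped for all 26, whereas 6.56% of all genes did not overlap. The members with the smallest p by edgeR were Cxcr4 (log2 fold change 0.52, SE 0.249), Ccl5 (-0.70, SE 0.422) and Cxcl10 (-0.57, SE 0.429), each with an adjusted p of 0.999. The median was -0.15 over the members and 0.0036 over all genes tested. ARNI and SHR libraries of the same number are not known to come from paired animals. Of the 26 members, 5 were lower in ARNI than in SHR in all 3 pairs of the same number and 0 were higher in all 3, beside 22.5% and 7.83% of all genes tested. In the fit with the replicate block, their log2 fold changes were -0.35 (SE 0.119) for Cxcl16, -0.39 (SE 0.223) for Cx3cl1, -0.72 (SE 0.368) for Ccl7, -0.998 (SE 0.582) for Cxcl1 and -0.23 (SE 0.312) for Ccr10. These 5 were chosen by the same pairs, so the direction in this fit followed from the choice. Cxcl1 had 2 reads in both SHR 2 and ARNI 2. Ccr10 had 36 reads in SHR 1 and 37 in ARNI 1, and was lower in ARNI 1 in CPM only (2.41 and 2.34). With the block, 1 member, Cxcl16, and 5.24% of all genes had an unadjusted p under 0.05, and edgeR called 0 genes (adjusted p between 0.844 and 0.908 for the 5 members). Within the ARNI group, ARNI 2 lay at or near the WKY libraries for Ackr4, Ccl7, Ccl27, Cxcl16, Cxcl11 and Cxcl12.

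In ARNI against ARB, 29 members were tested and edgeR called 0, beside 0% of 13948 genes. At an unadjusted p under 0.05, 2 members and 3.86% of all genes passed by edgeR, and 3 members by DESeq2, which called 0. Ccl6 (log2 fold change -1.18, SE 0.4), Ccl5 (-1.001, SE 0.357) and Cxcl13 (-1.49, SE 0.643) were lower in every ARNI library than in every ARB library, each with an adjusted p of 0.993 by edgeR. These were the 3 of 29 members whose groups did not overlap (10.3%), and 10.5% of all genes tested did not overlap. A p that misses the threshold does not show that the groups have equal levels. The summed macrophage markers spanned 160 to 444 CPM in ARB and 68.2 to 224 CPM in ARNI, and their part in the Ccl6 values was not tested.

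The pathway around chemokine receptors was described by 6 lists, whose counts stand beside the 8.89% of all genes called (5.54% higher and 3.35% lower) and the median of 0.015 over all genes tested. Of the 41 genes of signalling below the receptors, 4 rose in SHR against WKY and 3 fell by edgeR, with a median log2 fold change of 0.18. Gng2, a G protein subunit (log2 fold change 3.46, SE 0.46, adjusted p = 0.00738), Ptk2b, a tyrosine kinase (2.49, SE 0.231, adjusted p = 0.00317), Grk3, a receptor kinase (1.51, SE 0.308, adjusted p = 0.0219), and Tiam1, an activator of Rac1 (1.39, SE 0.355, adjusted p = 0.0387), rose by edgeR. Pik3r5 (-1.19, SE 0.254, adjusted p = 0.0246), Prkcb (-1.16, SE 0.264, adjusted p = 0.0289) and Pik3cg (-1.15, SE 0.294, adjusted p = 0.0395), which carry signals in leukocytes, fell by edgeR. Gng2 was between 6.4 and 8.17 CPM in WKY, between 51.9 and 146 in SHR and at 4.17 CPM in ARNI 2. Ptk2b, Grk3 and Tiam1 in ARNI 2 were at 9.75, 2.67 and 1.1 CPM, within their WKY ranges. Pik3r5, Prkcb and Pik3cg in ARNI 2 were at 0.943, 1.73 and 9.51 CPM, below their WKY ranges. Of 13 alternatives, the call held in 12 for Ptk2b, 11 for Gng2 and 7 for Pik3r5. It held in 6 each for Grk3, Tiam1 and Prkcb, and in 5 for Pik3cg. Over the alternatives the log2 fold change of Ptk2b lay between 0.31 and 2.70, with an adjusted p of up to 0.754 by Benjamini-Hochberg. That of Gng2 lay between 0.66 and 3.74. Its lower end was the fit with the chamber score as covariate, in which Gng2 was not called (adjusted p = 0.654 by edgeR).

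Of the 11 cytokines and cytokine receptors tested that induce chemokines, Il18 (1.59, SE 0.356, adjusted p = 0.028) and Il33 (1.25, SE 0.337, adjusted p = 0.0442) rose on the log2 scale by edgeR, and 0 fell. Of 16 genes of leukocyte adhesion and exit, Selp (2.83, SE 0.661, adjusted p = 0.0311) and Vcam1 (2.198, SE 0.501, adjusted p = 0.0293), which hold leukocytes on endothelium, rose by edgeR and 0 fell. Selp was between 0.0889 and 0.341 CPM in WKY, and WKY 2 and WKY 3 were under the level that 3 counts give. It entered the test through the SHR group (1.08 to 2.68 CPM), in which it was high. Of 11 genes of chemokine capture and shedding, Gpc4, a heparan sulfate carrier, rose (1.79, SE 0.25, adjusted p = 0.00862 by edgeR). Beside these counts stands the 8.89% of all genes tested that were called. Over 13 alternatives, the call held in 11 for Gpc4, 7 for Selp, 6 each for Il18 and Vcam1, and 5 for Il33. With the chamber score as covariate, Gpc4 was not called (log2 fold change 0.43, adjusted p = 0.393 by edgeR). In the NF-kB list 0 of 17 genes were called, and 0 of 7 tested chemoattractant genes outside the symbol rule. The medians of these 5 lists were 0.091, 0.040, -0.17, 0.071 and -0.18. Il18, Vcam1 and Gpc4 in ARNI 2 were at 0.629, 12.3 and 48.1 CPM, while in WKY they were between 0.87 and 1.36, between 8.89 and 13.7 and between 38.4 and 45.9 CPM. Il33 in ARNI 2 was at 5.42 CPM, below its WKY range of 20.6 to 30 CPM. Selp in ARNI 2 was at 0.55 CPM, above its WKY range of 0.0889 to 0.341 CPM. In the other 3 comparisons edgeR called 0 genes of every list.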

How the data were processed

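RNA of the left atrium from 12 rats, 3 per group, was enriched with oligo(dT) beads and sequenced as single-end reads on a BGIseq-500. The authors filtered reads with SOAPnuke, aligned them with HISAT2 2.0.4 and Bowtie2 2.2.5 to Rnor_6.0 (versions and build from the submitters' processing notes), and deposited RSEM's expected counts for each gene, not normalized. An expected count shares a read between genes it could come from, which left 23.6% of the deposited values with a fraction. Whether counting used strand is not given in the sources used here. The table lists 37246 genes, of which 21239 have counts, and it also holds 2 columns of the authors' comparison of SHR with WKY, a log2 fold change and a p-value, which were not used.

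These counts were rounded, and CPM were computed over library totals (11252345 to 15823511 counts). Pairs of groups were compared on their 6 libraries with edgeR 4.0.16 in R 4.3.3 (filterByExpr, TMM scaling, quasi-likelihood test), and p-values were adjusted by Benjamini-Hochberg over all genes tested. A gene was called where its adjusted p was no higher than 0.05 and its log2 fold change was 1 or more in size, and its SE came from the F statistic. DESeq2 1.42.0, other scalings, no filter, a fit of all 12 libraries, a replicate block, a chamber score (mean log2 CPM of atrial minus that of ventricular markers) and leaving out libraries were alternatives. The steps were tested on simulated counts. Python 3.11.15, pandas 2.3.3 and matplotlib 3.10.9 were used for promoters and figures.

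Values per library are given for members with a mean of at least 2 CPM or called in any comparison, and fold changes for called members and, in each comparison, the 3 uncalled members with the smallest p. From the pathway lists the called genes are named, at most 4 per direction. Values of Ccl2, Ccr10 and Xcl1 per library, the lower receptors, the genes that overlap members, and the fold changes of Cxcl11, Cxcl12, Cxcl13, Ccl21, Cd163, Mrc1, Wt1, Flt3 and Itgax, the lymphatic markers, and the 5 members lower in every ARNI and SHR pair fall outside that rule and were chosen after their values were seen. Values of 1 member are not reported here. The members, the 23 lists and the alternatives were chosen with earlier results of these data known.

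Replicate numbers occur in every group. Deviations from the group means over 13542 genes correlated between libraries of the same number at 0.542, 0.487 and 0.191 in ARNI and SHR. No label ties a number to a shared animal or batch, and the SHRs were divided at random among their groups. SHR 2 and ARNI 2 both hold ventricular markers. Libraries of different numbers with such markers correlated at 0.547 (ARB 3 and SHR 2) and 0.627 (ARNI 2 and ARB 3). Pairing and shared markers therefore cannot be told apart, and the fit with the replicate block is given as an alternative. In the other comparisons at least 1 of the 3 correlations was negative, and the numbers were not taken as pairs.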

Additional observations from a re-analysis of the deposited data

How the results depend on the processing

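The number of members called between SHR and WKY, 5, was 6 with DESeq2 (3 higher and 3 lower), 5 with DESeq2's size factors, 5 without scaling and 4 without a filter on low counts. It was 0 in the fit of all 12 libraries, 0 with the replicate block and 0 with the chamber score as covariate, and it ranged from 0 to 9 when single libraries were left out. Over all genes, 1226 were called, 579 in the fit of all 12 libraries, 681 with the block, 125 with the covariate, 2205 without SHR 2, 577 without SHR 1, and 393, 353 and 348 without WKY 1, WKY 2 and WKY 3. The 3 correlations of same-numbered libraries in SHR and WKY were 0.0296, -0.0602 and -0.104, so the numbers do not pair them, and the adjusted p of the 5 members with the block lay between 0.0629 and 0.0786 by edgeR. In the other 3 comparisons 0 members were called under every alternative run, the block included. With the chamber score as covariate, log2 fold changes turned direction for Ackr4 (-0.15), Ccl7 (-0.27), Cxcl16 (-0.049), Cxcl9 (0.0043), Cxcl11 (1.72), Cxcl12 (0.60), Grk3 (-0.46), Il18 (-0.14), Il33 (-1.91) and Vcam1 (-0.19), and the cause was not tested. Of 464 alternative values of 35 fold changes, 332 kept direction and side of the threshold, 115 kept direction and lost the call, 7 gained it and 10 turned. The 332 include fold changes that were not called at the outset, among them all those of the other 3 comparisons, so they do not measure how often a call held. For the called members, the call held in 6 of 13 alternatives each for Ackr4, Cxcr4 and Ccl7, in 5 for Cxcl16 and in 4 for Ccl27. Mean levels moved by at most 9.37% with TMM library sizes. The filter on low counts left 26 members out of every comparison, and of these, 24 could be fitted without the filter and by DESeq2, with 0 called by either.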

Other observations

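Pf4, the platelet chemokine, lies outside the symbol rule. It was at 20.5 and 21.7 CPM in ARB 1 and ARB 3 and between 1.83 and 6.3 CPM in the other 10 libraries, ARB 2 included at 2.48 CPM. Erythroid markers were summed to 410, 483 and 3850 CPM in ARB, to 1040 to 2170 CPM in WKY, to 402 to 1100 CPM in SHR and to 245 to 965 CPM in ARNI, so ARB 3 was high in both and ARB 1 in Pf4 alone.

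The remaining cell marker lists are given as summed CPM. Neutrophil markers lay between 1.52 and 7.37 CPM in all libraries. Mast cell markers were at 7.59 to 9.86 CPM in WKY, 0.802 to 3.71 in SHR, 2.31 to 3.44 in ARB and 0.822 to 7.19 in ARNI. Dendritic cell markers were at 39.2 to 47.5 CPM in WKY and 26.2 to 38 in the other groups. Among them, Flt3 rose in SHR against WKY (log2 fold change 1.70, SE 0.315, adjusted p = 0.0174 by edgeR). Itgax fell (-1.27, SE 0.28, adjusted p = 0.0268 by edgeR), so the sum does not describe each marker. Endothelial markers were at 1060 to 1130 CPM in WKY and 743 to 1770 elsewhere, and fibroblast markers at 1070 to 1230 CPM in WKY and 656 to 2160 elsewhere. Smooth muscle and pericyte markers were at 354 to 424 CPM in WKY, 188 to 303 in SHR, 197 to 272 in ARB and 270 to 761 in ARNI. Adipocyte markers lay between 65.6 and 518 CPM and those of neurons and glia between 29 and 152 CPM. Atrial myocyte markers were at 81.4 to 303 CPM in WKY, and ventricular markers at 10900 to 11200 CPM there.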
